A study of Mus musculus with 12 samples.

Results

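The EGF and HGF systems were followed across mouse livers and liver tumours through 10 genes: the receptors Egfr, Erbb2, Erbb3 and Met, and the ligands Hgf, Egf, Tgfa, Areg, Ereg and Hbegf. They were chosen by name, as the probes outside control spots that the array files list under these symbols, which gave 12 probes for 10 genes. Of these, 8 passed a filter on dim probes and belong to the 18101 genes tested, and Areg and Ereg did not pass it. Liver RNA of F2 males of the strain C3H/HeN, about 74 weeks old, was hybridised to 12 Agilent 1-colour arrays. F0 dams of the arsenite line drank water with 85 ppm sodium arsenite on gestation days 8 to 18, while they carried the F1 mice. Those of the control line drank tap water. The F1 and F2 mice of both lines were given no arsenite of their own, so that exposure of the F1 mice was through the dam. F1 mice were mated at 10 weeks to give the F2 males. The 4 groups held 3 arrays each: tumours, non-tumour liver and normal liver from the arsenite line, and from the control line only non-tumour liver. C3H is a strain in which males often develop liver tumours with age without any exposure, and tumours of the control line were not analysed here.

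Growth factors of the EGF family bind receptors of the ErbB family at the cell surface, which then pair and phosphorylate each other. Erbb2 has no known ligand and acts as a partner, and Erbb3 has little kinase activity of its own and depends on a partner. Most EGF-family ligands are made as membrane proteins and are released by proteases, a step called shedding. Hgf is secreted as an inactive chain, is cut by serine proteases and then activates the receptor Met. In liver, hepatocytes carry much Egfr and Met, stellate cells are a main source of Hgf, and both systems drive hepatocyte growth after partial loss of the liver.

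The probes on which the results turn are shown first, as the array files list them, 5′ to 3′ and in lower case, since a probe reports only the transcripts that contain its letters. Both stretches of coding sequence are printed whole (60 bases), and the first 30 bases are given of the others. All lie on the plus strand of mm9: Met at chr6:17503299-17503358, Egfr in the extracellular domain at chr11:16783556-16783615, Egfr transcript variant 2 at chr11:16787172-16787231, Egfr transcript variant 1 near its 3′ end at chr11:16813815-16813874, Hgf at chr5:16124829-16124888 and Tgfa at chr6:86224838-86224897.
Met: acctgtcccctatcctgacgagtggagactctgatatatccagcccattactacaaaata
Egfr, extracellular domain: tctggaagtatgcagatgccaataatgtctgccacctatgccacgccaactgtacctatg
Egfr, variant 2: gaagtgtggccatctgggtacgttcaatgg
Egfr, variant 1: gttgcaagccactctaactgtagcaatgaa
Hgf: agtgtgtttgaagcatccatggatacatga
Tgfa: tggacatacacagaaccaaaccatgagtta

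Promoters of the 4 members that changed between tumours and arsenite non-tumour liver and have an entry are shown for the same reason: a pair of genes that rose and a pair that fell. They are the 250 bases before the start site in RefSeq on GRCm38.p6, gene strand, with motif matches in capitals. The positions are chr6:17463707-17463956 for Met, chr6:86194972-86195221 for Tgfa, chr11:16751953-16752202 for Egfr and chr5:16553245-16553494 for the first of 2 Hgf start sites, all on the plus strand. RefSeq's table had entries for 7 of the 10 members.
Met: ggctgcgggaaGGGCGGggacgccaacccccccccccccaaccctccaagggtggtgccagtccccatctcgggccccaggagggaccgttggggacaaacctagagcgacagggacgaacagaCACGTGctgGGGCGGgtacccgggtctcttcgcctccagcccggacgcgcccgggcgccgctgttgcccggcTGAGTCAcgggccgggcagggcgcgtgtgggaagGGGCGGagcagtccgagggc
Tgfa: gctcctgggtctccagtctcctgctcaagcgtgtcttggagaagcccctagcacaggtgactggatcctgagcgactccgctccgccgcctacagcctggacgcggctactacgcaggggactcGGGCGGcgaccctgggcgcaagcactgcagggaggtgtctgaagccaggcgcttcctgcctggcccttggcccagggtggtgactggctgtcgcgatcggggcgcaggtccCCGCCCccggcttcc
Egfr: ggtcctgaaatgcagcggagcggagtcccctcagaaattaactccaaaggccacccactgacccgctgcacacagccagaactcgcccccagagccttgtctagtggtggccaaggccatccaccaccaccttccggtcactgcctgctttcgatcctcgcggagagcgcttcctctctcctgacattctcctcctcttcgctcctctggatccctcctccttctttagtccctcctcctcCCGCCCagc
Hgf: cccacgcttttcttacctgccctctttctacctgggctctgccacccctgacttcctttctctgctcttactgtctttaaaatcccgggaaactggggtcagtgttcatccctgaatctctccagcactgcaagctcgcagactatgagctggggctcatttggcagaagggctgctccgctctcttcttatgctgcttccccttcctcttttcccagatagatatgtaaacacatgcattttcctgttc

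Motifs were searched on both strands, with no overlap among the matches found in these windows. The GC box, GGGCGG, occurred 3 times before Met, 2 times before Tgfa and 1 time before Egfr, and 32.7% of the 32851 promoters in the table hold it. The AP-1 motif, TGANTCA, occurred 1 time, before Met, starting 54 bases before the start site, and 6.75% of all promoters hold it. An E-box, CACGTG (6.02% of promoters), also lay before Met. Neither Hgf window held any of the motifs searched, which also included the TATA box TATAAA (12.4% of promoters) and the CRE TGACGTCA (1.55%). The window before Met was 74% G and C, that before Tgfa 69.2%, Egfr 60.8% and the printed Hgf window 50.8%, against a median of 52.4% over all promoters. Of the members whose windows are not printed, Erbb2 had 66% G and C, Areg 57.2% and Egf, at its start sites, 50.4% and 52%. The Areg window held a GC box, a TATA box and a CRE. Those of Erbb2 and Egf held none of the motifs. These matches describe the letters of the windows, and binding was not measured.

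Levels are log2 of the processed signal minus the 75th percentile of the array, so that 0 marks a probe as bright as that percentile, and values are comparable between arrays for one probe and not between probes. That percentile ranged from 153 to 245 signal units, and 21853 to 25418 probes per array were well above background, the scanner software's test of a spot against its surroundings. Markers of hepatocytes were bright on all arrays: their summed level, which weighs the brightest probes most, ran from 4592 to 5800 times the percentile outside tumours and from 3666 to 4453 times in tumours. Per the file headers, tumours and normal liver of the arsenite line each lay on a slide with no other group of this series. Both non-tumour groups shared the third. Slide and group therefore cannot be told apart in any comparison with tumours or with normal liver, whereas arsenite and control non-tumour liver were compared within a slide. The labels number samples without saying that they came from separate mice, so the p-values measure only the spread between these samples.

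The main contrast set tumours of the arsenite line against non-tumour liver of the same line. Met, Tgfa and Hbegf were higher in tumours, Egfr and Hgf were lower, and Erbb2, Erbb3 and Egf did not pass the test. Of the 8 members tested, 5 were thus called at an adjusted p under 0.05 (limma, Benjamini-Hochberg over all genes tested), 3 higher and 2 lower, where 47% of all genes tested were called, 17.1% higher and 29.9% lower. In all 5 the tumour arrays lay wholly to one side of the non-tumour arrays, 3 above and 2 below, as in 56.4% of genes, 20.5% above and 35.9% below. The median log2 difference of the 8 members was -0.0017, against -0.127 over all genes. Of the 3 members called higher, Tgfa passed the filter on dim probes only through the tumours. These counts come from a fit without pairing. In a fit of the 6 arrays with the sample number as a block, 7069 of the 18101 genes were called, in place of 8503, and the call of Met was lost.

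**Figure D1:**
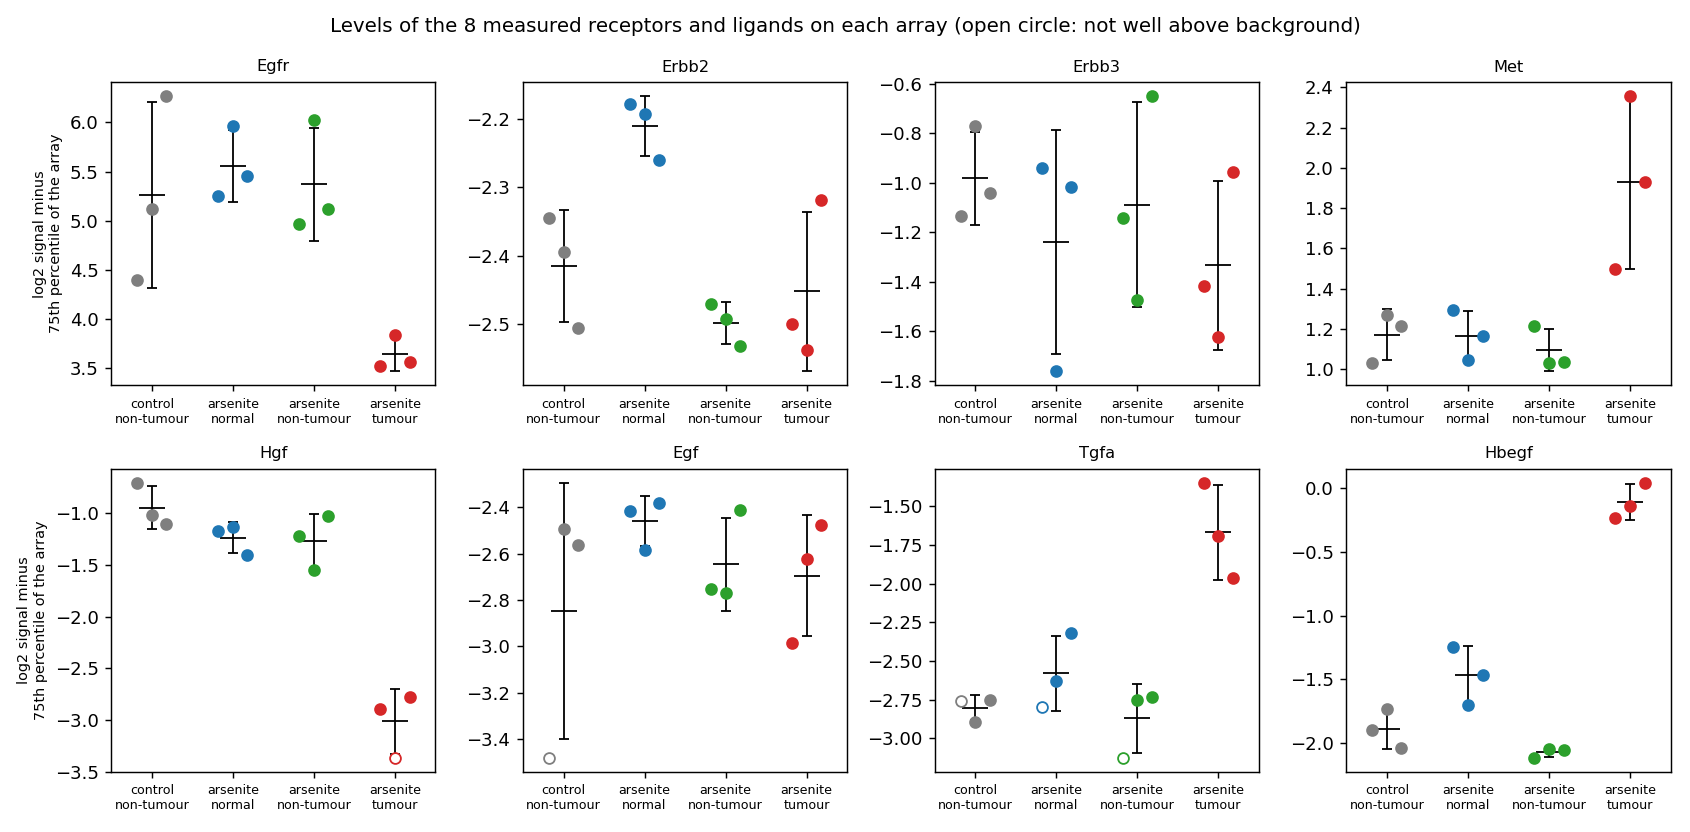
Levels of the 8 members tested, with 1 point per array, the group mean (long bar) and the SD over 3 arrays (error bar); the vertical axis is log2 signal minus the 75th percentile of the array and differs between panels. In Met, Tgfa and Hbegf the 3 tumour arrays lie above all 9 others, and in Egfr and Hgf below all 9.

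Egfr, the receptor of Egf, Tgfa and Hbegf, was measured by 3 probes. On the probe at the 3′ end of variant 1, which stands for the gene because its mean was highest, the control non-tumour arrays read 4.40, 5.12 and 6.27. Normal liver of the arsenite line read 5.25, 5.96 and 5.46, and non-tumour liver 4.97, 6.02 and 5.12. The tumours read 3.53, 3.84 and 3.56. All 3 tumours were thus below all 9 other arrays, and the other 3 groups overlapped one another. The log2 difference between tumour and non-tumour liver was -1.73 ± 0.43 (SE, n = 3 per group; 3.31-fold lower; limma adjusted p = 0.0072), with a 95% interval from -2.67 to -0.78. Against normal liver it was -1.91 ± 0.43 (adjusted p = 0.0041).

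Outside tumours this Egfr probe varied more than most. Its SD within groups over those 9 arrays was 0.67, larger than that of 96.3% of the 24144 probes past the filter, whose median was 0.18. Measurement error within an array was far smaller: the probe was printed 10 times on each array, and the SD between the spots kept had a median of 0.041. The widest range was in control non-tumour liver, where the highest array exceeded the lowest by 3.65-fold.

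The other Egfr probes lie 26.6 and 30.3 kb upstream of the first in the genome. Mouse Egfr is known to give a shorter transcript for a truncated receptor as well as the full-length one, and the annotation lists one of these probes under transcript variant 2 alone. On that probe the tumours read 1.78, 0.75 and 0.77, against 3.92, 4.07 and 2.56 in arsenite non-tumour liver, 3.89, 3.58 and 3.90 in normal liver and 3.28, 3.48 and 3.87 in control non-tumour liver. The difference from non-tumour liver was -2.42 ± 0.39 (adjusted p = 0.00063 in a limma fit of all probes). On the extracellular-domain probe the tumours read 1.69, 1.37 and 1.08, against 3.77, 4.19 and 2.71 in non-tumour liver, a difference of -2.17 ± 0.35 (adjusted p = 0.00056). All 3 probes were thus lowest in the 3 tumours. The third non-tumour array of the arsenite line was the lowest of the 9 other arrays on both of these probes but not on the variant 1 probe.

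Whether the Egfr probes fell by unequal amounts was tested on their difference within each array. The fall on the variant 2 probe exceeded that on the variant 1 probe by 0.69 ± 0.49 log2 units (adjusted p = 0.46), and the fall on the extracellular-domain probe by 0.45 ± 0.34 (adjusted p = 0.49). The same test called 12.2% of the 6043 probes that have a partner for the same gene. Unequal loss of the transcripts was thus not shown at this number of arrays. This test was added after the probes had been seen.

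**Figure D2:**
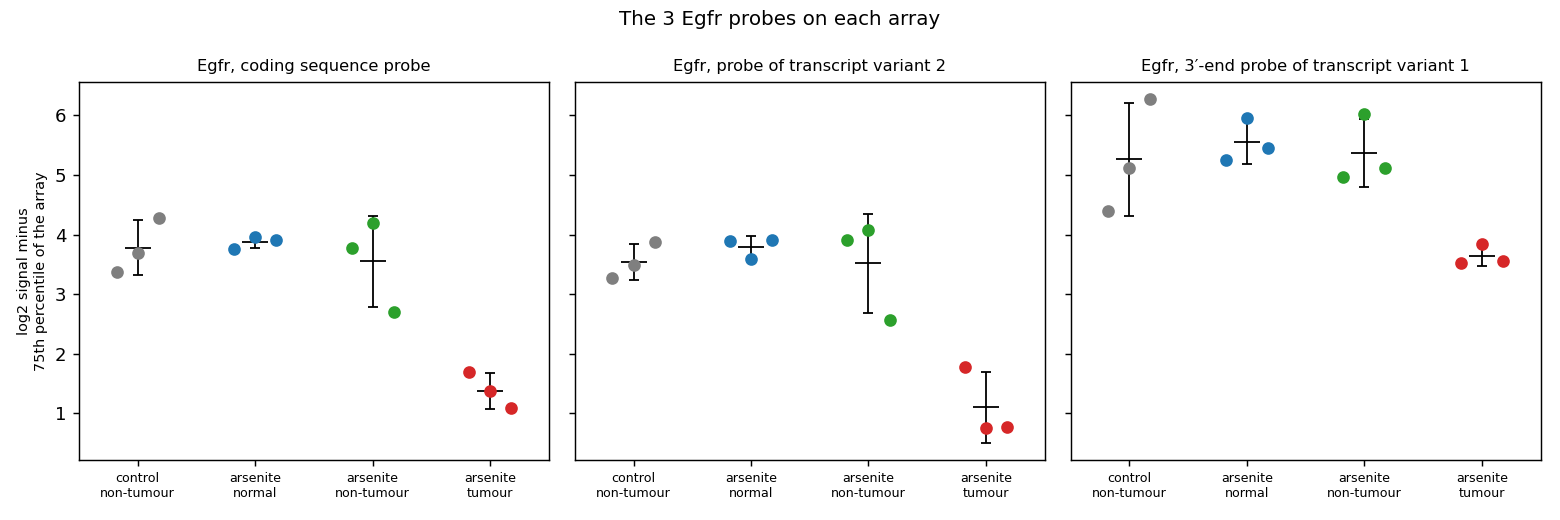
The 3 Egfr probes on the 12 arrays, as log2 signal minus the 75th percentile of the array, with the mean and SD of each group of 3. The tumours are the lowest 3 points in every panel, at 3.53 to 3.84 on the variant 1 probe, 0.75 to 1.78 on the variant 2 probe and 1.08 to 1.69 on the extracellular-domain probe.

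Some markers of hepatocytes, which carry much of the Egfr of a liver, were also lower in tumours. Of 8 hepatocyte markers 4 were lower and none higher, where 29.9% of all genes were called lower and 17.1% higher, and with the sample number as a block the call of Serpina1e was lost (adjusted p = 0.087). The urea-cycle enzyme Cps1 differed by -2.13 and the amino acid enzyme Tat by -2.63, whereas albumin (Alb) differed by -0.05 (adjusted p = 0.72) and the transcription factor Hnf4a by 0.14 (adjusted p = 0.34). In bulk tissue, fewer cells of a type and less RNA per cell cannot be told apart, and the part of cell makeup in the Egfr result was not tested.

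Erbb2, the partner receptor without a ligand, read -2.50, -2.54 and -2.32 in tumours and -2.47, -2.49 and -2.53 in arsenite non-tumour liver. Control non-tumour liver read -2.35, -2.39 and -2.51, and normal liver of the arsenite line -2.18, -2.19 and -2.26. The first 3 of these groups overlapped, and the 3 normal livers were higher than all other arrays. The difference between tumour and non-tumour liver was 0.05 ± 0.09 (adjusted p = 0.69), with a 95% interval from -0.14 to 0.24. Against normal liver the tumours were lower by a log2 difference of -0.24 ± 0.09 (adjusted p = 0.038), a call lost in 14 of 22 alternative settings, where the difference ran from -0.31 to -0.03. The signal was dim, and the SD between the 10 spots of an array had a median of 0.47.

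Erbb3, which signals through a partner, read -1.42, -1.62 and -0.96 in tumours and -1.14, -1.47 and -0.65 in non-tumour liver of the arsenite line. Normal liver read -0.94, -1.76 and -1.02, and control non-tumour liver -1.13, -0.77 and -1.04. All 4 groups overlapped. The tumour difference was -0.24 ± 0.27 against non-tumour liver (adjusted p = 0.49; 95% interval -0.84 to 0.36) and -0.09 ± 0.27 against normal liver (adjusted p = 0.80).

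Met, the Hgf receptor, read 1.50, 2.36 and 1.93 in tumours. Non-tumour liver of the arsenite line read 1.22, 1.03 and 1.04, normal liver 1.29, 1.05 and 1.16, and control non-tumour liver 1.03, 1.27 and 1.22. The 9 arrays outside tumours stayed within a narrow band, with group means of 1.09 to 1.17, and every tumour lay above it. Met was thus higher in tumours by 0.83 ± 0.18 (1.78-fold, adjusted p = 0.0037) against non-tumour liver and by 0.76 ± 0.18 (1.69-fold, adjusted p = 0.0062) against normal liver. Tumours differed among themselves more than the other groups did, with an SD of 0.43 against 0.10 to 0.13. In a fit of the 6 arrays with the sample number as a block, the adjusted p against non-tumour liver was 0.056, so that the call was lost.

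Hgf, the ligand of Met, moved the other way. It read -2.89, -3.37 and -2.78 in tumours, the second of which was not well above background. Arsenite non-tumour liver read -1.22, -1.56 and -1.03, normal liver -1.18, -1.13 and -1.41, and control non-tumour liver -0.71, -1.02 and -1.11. The tumours formed a separate low group. Of the other groups, arsenite non-tumour liver overlapped both, whereas all 3 control arrays lay above all 3 normal arrays, a pair that was not tested. The difference was -1.74 ± 0.19 against non-tumour liver (3.34-fold lower, adjusted p = 3.9e-05) and -1.77 ± 0.19 against normal liver (3.42-fold lower, adjusted p = 3.5e-05). With normexp background correction, which adds an offset of 50 to every signal, the difference against non-tumour liver was -0.86 (adjusted p = 3.8e-05).

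Markers of stellate cells and fibroblasts, the first of which are a source of Hgf, did not all move one way. Of 12 tested, 7 were lower in tumours and 4 higher, where 29.9% of all genes were called lower and 17.1% higher. With the sample number as a block, 2 of the lower calls were lost, Pdgfrb (adjusted p = 0.19) and Ecm1 (adjusted p = 0.14). The summed level of the list was 134 to 159 times the 75th percentile in arsenite non-tumour liver and 45.3 to 91.2 in tumours, but it rests on the bright probes of Dcn and Ecm1, and Ecm1 alone was 57.7, 14.5 and 18.1 times in the 3 tumours. Lower were, among others, Lrat, the enzyme that stores vitamin A (-2.14 ± 0.25), the matrix proteoglycan Dcn (-2.05 ± 0.11), the lectin Colec11 (-2.03 ± 0.14), the transcription factor Hand2 (-1.90 ± 0.22) and the pericyte gene Rgs5 (-1.56 ± 0.14). Higher were Acta2, the smooth muscle actin of activated stellate cells (1.57 ± 0.36), the collagens Col1a1 (2.11 ± 0.37) and Col1a2 (0.89 ± 0.24), and Reln (1.08 ± 0.21). Each was called by limma at an adjusted p under 0.05. The call of Col1a2 was lost in 1 of 22 alternatives (limma adjusted p = 0.055). Hand2 was not well above background on 2 of the 3 tumour arrays, and with normexp it differed by -0.78, Lrat by -1.16 and Reln by 0.31. Of 10 endothelial markers, 4 were lower and 2 higher, close to the shares over all genes, and the call of Lyve1 was lost with the block (adjusted p = 0.063). The part of these cells in the Hgf result was not tested.

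**Figure D3:**
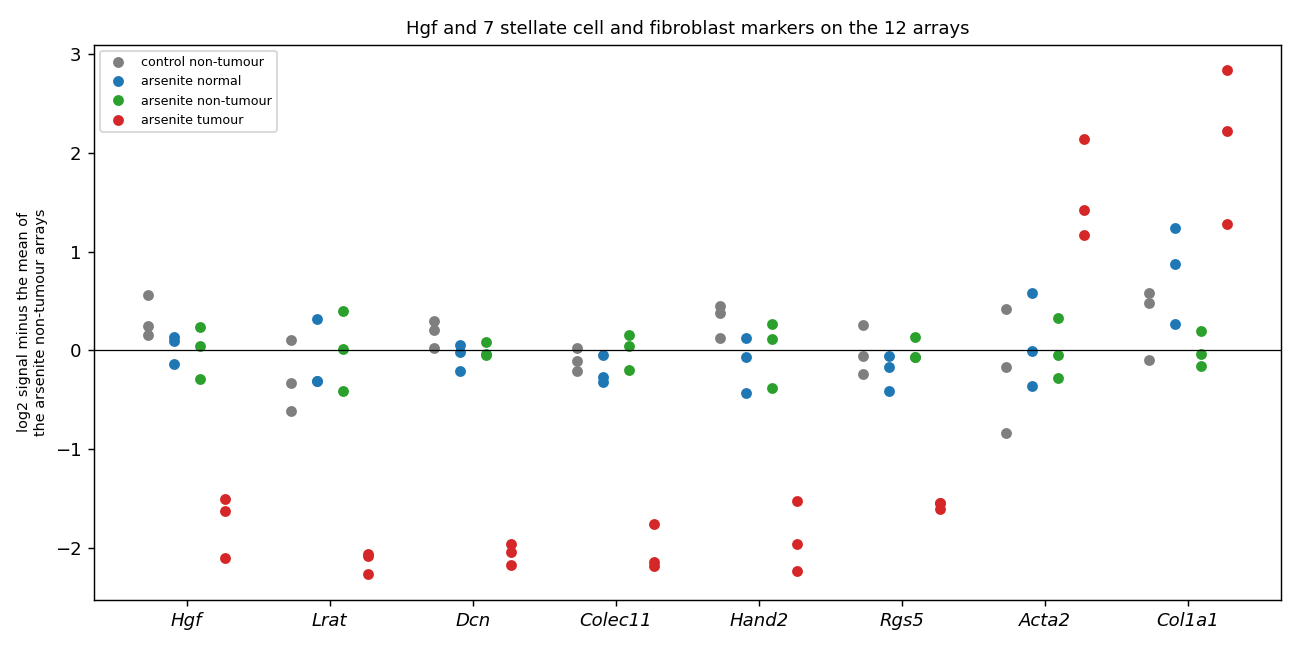
Hgf and 7 stellate cell and fibroblast markers, with 1 point per array, as log2 signal minus the mean of the arsenite non-tumour arrays for that gene. In tumours, Hgf (difference of means -1.74) lies with Lrat, Dcn, Colec11, Hand2 and Rgs5 below the other arrays, and Acta2 and Col1a1 lie above.

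Tgfa, a ligand of Egfr that causes liver tumours in mice when overexpressed, read -1.35, -1.69 and -1.96 in tumours. Arsenite non-tumour liver read -3.13, -2.75 and -2.74, normal liver -2.80, -2.63 and -2.32, and control non-tumour liver -2.76, -2.90 and -2.75. The 3 tumours were higher than all other arrays, and in each other group the first array was not well above background. Tgfa thus passed the filter on dim probes only through the tumours, the group in which it was high. The difference was 1.20 ± 0.18 against non-tumour liver (2.30-fold, adjusted p = 0.00031) and 0.91 ± 0.18 against normal liver (1.88-fold, adjusted p = 0.0018). With normexp background correction these were 0.34 (adjusted p = 0.0052) and 0.19 (adjusted p = 0.075), so that the call against normal liver was lost.

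Hbegf, a ligand of Egfr made as a membrane protein, read -0.23, -0.14 and 0.04 in tumours. Arsenite non-tumour liver read -2.12, -2.05 and -2.06, normal liver -1.24, -1.70 and -1.46, and control non-tumour liver -1.90, -1.73 and -2.04. The tumours stood clear of all other arrays, and arsenite non-tumour liver was the lowest group, below each array of the other 3. Its highest array (-2.05) lay only just below the lowest control array (-2.04). Hbegf was higher in tumours by 1.97 ± 0.13 (3.91-fold, adjusted p = 1.8e-06) against non-tumour liver and by 1.36 ± 0.13 (2.57-fold, adjusted p = 2.0e-05) against normal liver. The normexp alternative gave 1.18 against non-tumour liver (adjusted p = 1.5e-06). Macrophages also make Hbegf, and of 9 macrophage markers 7 were lower in tumours and none higher. Of all genes, 29.9% were called lower and 17.1% higher. The Kupffer cell lectin Clec4f differed by -2.27 ± 0.18. Of 5 T and B cell markers 1 was higher, Cd4 (1.88 ± 0.27), and 1 lower, Nkg7. Their summed level was 129 to 175 times the 75th percentile in tumours and 30.9 to 58.2 in arsenite non-tumour liver, nearly all of it from Cd4, whereas Cd3e (-0.09) and Cd3g (0.16) were not called. Of 5 markers of neutrophils and mast cells 1 was lower, Ly6g, and of 5 bile duct markers none was called. The same shares over all genes stand beside the counts of these lists. The calls of Nkg7 and Ly6g were lost with the sample number as a block (adjusted p = 0.065 and 0.10). The part of other cell types in the Hbegf result was not tested.

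Egf, the founding ligand of the family, read -2.99, -2.62 and -2.48 in tumours and -2.75, -2.77 and -2.41 in arsenite non-tumour liver. Normal liver read -2.42, -2.58 and -2.38, and control non-tumour liver -3.48, -2.50 and -2.56, the first not well above background. All groups overlapped, and the tumour difference was -0.05 ± 0.24 (adjusted p = 0.88; 95% interval -0.59 to 0.49). Areg and Ereg, ligands of Egfr that are induced in injured liver, were well above background on none of the 12 arrays, tumours included. Their levels are bounds only and no fold is given for them.

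**Figure D4:**
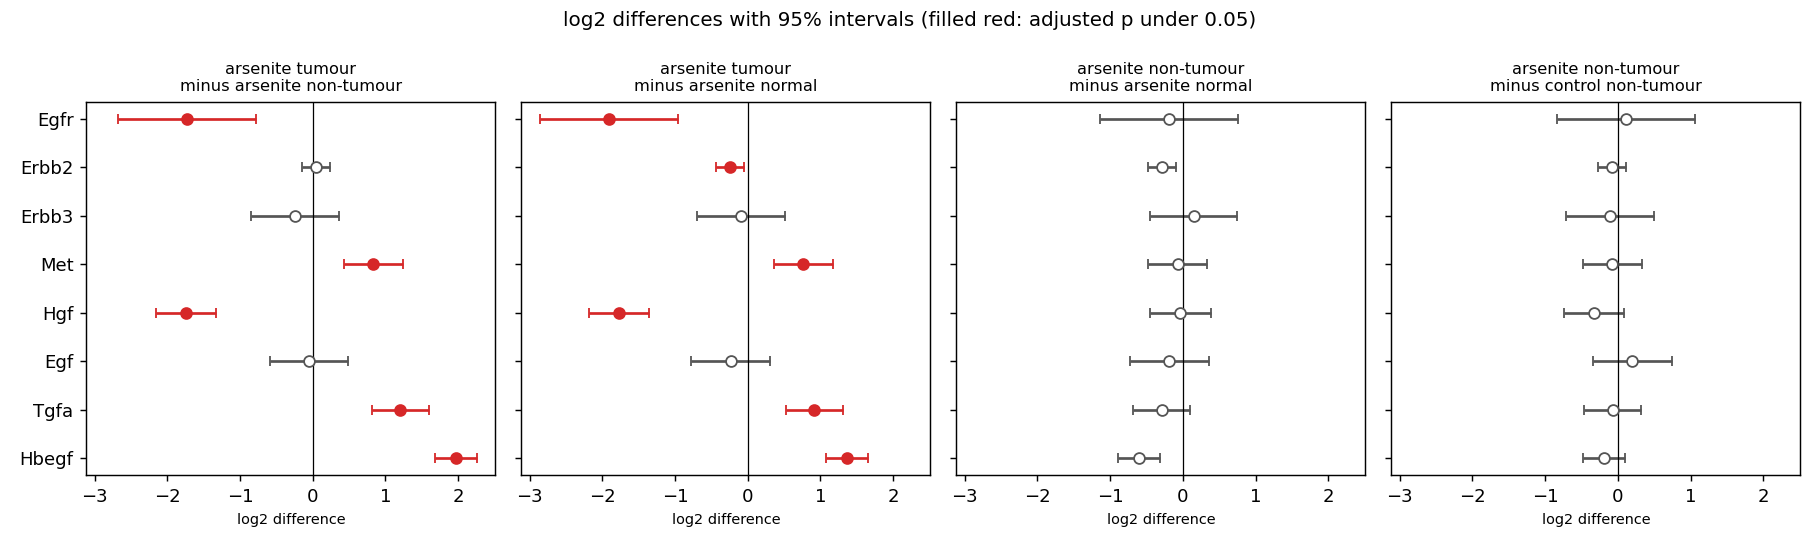
Log2 differences of the 8 members with 95% intervals from limma in the 4 comparisons; filled red points have an adjusted p under 0.05. Both tumour comparisons show Egfr and Hgf below 0 and Met, Tgfa and Hbegf above it, and no member is called in the 2 comparisons without tumours.

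Against normal liver of the arsenite line, which shares its tumour arrays with the comparison above, 6 of 8 members were called, 3 higher and 3 lower, where 48% of all genes tested were called, 17.1% higher and 30.9% lower. The 6 were the 5 named above and Erbb2. All 6 had tumour arrays wholly outside the range of the normal arrays, 3 above and 3 below, as had 58.7% of genes, 21% above and 37.7% below.

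Non-tumour and normal liver of the arsenite line were compared next. No member was called, and neither was any of the 18101 genes (0%, limma; 1234 genes had an unadjusted p under 0.05). Hbegf was lower in all 3 non-tumour arrays than in all 3 normal arrays, with a difference of -0.61 ± 0.13 (unadjusted p = 0.00084, adjusted p = 0.33). Erbb2 was also lower in all 3, by a difference of -0.29 ± 0.09 (adjusted p = 0.60). These 2 of 8 members without overlap, both lower, compare with 15.2% of genes, 7.87% higher and 7.31% lower. For the other 6 members the differences ran from -0.29 in Tgfa to 0.15 in Erbb3.

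Arsenite and control non-tumour liver were then compared within their shared slide, a comparison of livers that differ in what the F0 dams drank. No member was called, where 0.00552% of genes (1 gene, lower) were called by limma and 1015 genes had an unadjusted p under 0.05. Hbegf was lower in all 3 arsenite arrays by -0.18 ± 0.13 (adjusted p = 1.0), and it was the only 1 of 8 members without overlap, against 10.5% of genes, 3.63% higher and 6.87% lower. Over the 22 alternatives this Hbegf difference ran from -0.26 to 0.06, so that its sign changed. Hgf differed by -0.32 ± 0.19 (95% interval -0.74 to 0.09) and Met by -0.08 ± 0.18 (95% interval -0.48 to 0.33). For Egfr the interval was the widest of the 8, from -0.84 to 1.06.

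Genes of the same pathways were described in 5 lists, each by its counts in tumours against arsenite non-tumour liver. In the list of other ErbB receptors and ligands, 3 of 7 genes passed the filter and 2 were higher. The third, Btc, was not called. It was well above background on no array outside tumours, so that it passed the filter on dim probes only through the tumours. Nrg1, a ligand of Erbb3 and Erbb4, read 3.34, 4.03 and 3.62 in tumours, against -1.69, -1.52 and -1.81 in arsenite non-tumour liver, -1.17, -0.72 and -1.18 in normal liver and -1.19, -2.71 and -1.98 in control non-tumour liver. Every tumour thus stood far above the highest other array. The difference was 5.33 ± 0.33 (40.4-fold, adjusted p = 1.1e-06). Nrg4, a ligand of Erbb4 that also circulates from fat, was higher by 0.75 ± 0.19 (adjusted p = 0.0082), although 1 of its other probes was not (0.35, adjusted p = 0.31). Of the receptors that bind Nrg1, Erbb3 passed the filter and Erbb4 did not.

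The second list held genes of Hgf activation, a protease inhibitor among them. It also held the related pair of the ligand Mst1 (MSP) and its receptor Mst1r (RON). Of 9 tested, 4 were higher and 2 lower, with a median of 0.45. Mst1r, the closest relative of Met, read 1.57, 2.16 and 1.78 in tumours and -2.90, -3.36 and -2.51 in non-tumour liver, where only the third array was well above background. It was higher by 4.76 ± 0.31 (27.1-fold, adjusted p = 1.5e-06), and against normal liver, where it was below background, at least 26.2-fold. Hgfac, the activator that cuts Hgf, was higher by 1.19 ± 0.17 (adjusted p = 0.00022), the protease St14 by 1.55 ± 0.30 (adjusted p = 0.0018) and Mst1 by 0.45 ± 0.10 (adjusted p = 0.0042). The protease Hpn (-0.29) and plasminogen, Plg (-0.41), were lower. Both calls were lost with the sample number as a block (adjusted p = 0.081 and 0.069). That of Mst1 was lost in 1 of 22 alternatives (limma adjusted p = 0.076). The protease inhibitor Spint1 passed the filter on dim probes only through the tumours. It passed the test with that block (adjusted p = 0.028) and not without it (adjusted p = 0.068). With normexp the difference was 3.05 for Mst1r and 0.70 for St14.

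Genes of ligand shedding were higher in 5 of 7 cases and lower in none, with a median of 0.46. This count takes in a protease inhibitor, Timp3, beside genes that promote shedding. Rhbdf1, which carries the shedding protease Adam17 to the cell surface, read 3.13, 3.50 and 3.24 in tumours and 0.75, 0.66 and 0.44 in non-tumour liver, higher by 2.67 ± 0.14 (6.38-fold, adjusted p = 4.8e-07). Its relative Rhbdf2 was higher by 1.16 ± 0.15 (adjusted p = 0.00015). The proteases Adam10 and Adam9 were both higher by 0.46, and the protease inhibitor Timp3 by 0.73. The calls of Adam10 and Adam9 were each lost in 1 of 22 alternatives (limma adjusted p = 0.078 and 0.092). Adam17 itself differed by 0.30 ± 0.21 (adjusted p = 0.26).

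Adaptors and relay proteins were higher in 1 of 12 cases and lower in 3. Shc1, an adaptor of Egfr and Met, was higher by 0.42, and the adaptor Grb2 (-0.30), the phospholipase Plcg1 (-0.79) and the PI3 kinase subunit Pik3r1 (-0.88) were lower. The call of Grb2 was lost with the sample number as a block (adjusted p = 0.10). That of Shc1 was lost in 1 of 22 alternatives (limma adjusted p = 0.13). Of 14 genes that restrain the receptors or mark them for breakdown, 1 was higher and none lower: Socs5, at least 4.60-fold. Socs5 passed the filter on dim probes only through the tumours. The third normal array of the arsenite line (-1.19) lay above the first tumour (-1.35). The inhibitor Errfi1 differed by 0.38 ± 0.31 (adjusted p = 0.34). Each list's counts stand beside the 17.1% of all genes called higher and 29.9% called lower, and no gene of the 5 lists was called in either comparison without tumours.

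**Figure D5:**
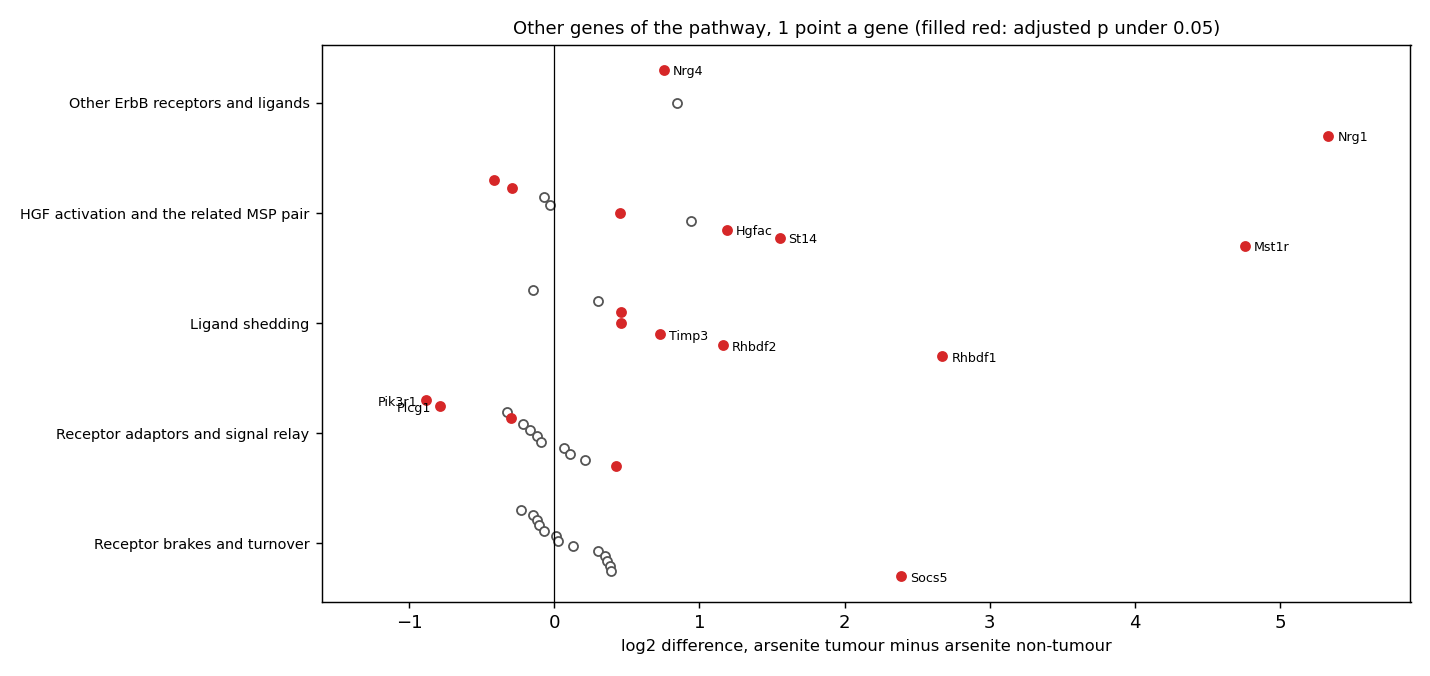
Log2 differences, tumour minus non-tumour liver of the arsenite line, of the genes past the filter in 5 lists, with 1 point per gene; filled red points have an adjusted p under 0.05 in limma, and vertical offsets only separate the points. Nrg1 (5.33), Mst1r (4.76) and Rhbdf1 (2.67) lie far to the right, and no gene lies below -1.

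The genes whose pattern over the 12 arrays was most like that of a member were named for the 5 members well above background on all arrays. For Egfr they were Actl6a (Pearson r = 0.991), Naa10 (0.988) and Mrps18b (0.977), and over the 9 arrays outside tumours the same genes gave 0.975, 0.964 and 0.945. These values are for the variant 1 probe only. Actl6a differed between tumour and non-tumour liver by -0.65 and Naa10 by -0.38. For Met they were Gm1604b (0.978), Psg26 (0.968) and an unnamed transcript (0.965), which outside tumours gave 0.669, 0.514 and 0.610. For Hbegf they were Itpr2 (0.981), Spn (0.979) and Bcl2l14 (0.979), with 0.917, 0.790 and 0.773 outside tumours. For Erbb2 the highest was 0.880 and for Erbb3, with Trim12c, 0.874. These are the best of 18093 genes compared on the same arrays, and the difference between tumours and the rest enters each value over 12 arrays.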

How the data were processed

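Per the file headers, the authors' scanner files hold a processed signal, an intensity after background subtraction that is not scaled between arrays. The headers give version 10.7.3.1 for the step that places the grid of spots, and the submitters' processing notes give Feature Extraction 12.0.3.1. A deposited table by the authors, a ratio, was checked to be that signal over the 75th percentile of all spots and served as an alternative. Spots of a probe were averaged without those marked as outliers. Probes had to be well above background, in more than 0.5 of their spots, throughout 1 or more groups (24144 of 55681 probes), and each gene was represented by its brightest probe on average. Names came from the accession (27235 probes), symbol (3581), synonym (565) or the file (24300), and positions from the array annotation (mm9). One limma 3.58.1 fit (R 4.3.3) of the 12 arrays gave 2-sided moderated tests with Benjamini-Hochberg adjustment per comparison, checked on simulated data. Figures used Python 3.11.15 and matplotlib 3.10.9. "At least" marks a fold for a gene below background throughout the lower group, taken against each array's dimmest signal still above background. The members and lists were chosen with earlier results of these data known. Named are all members, up to 6 called genes per list and defining markers, and 3 most-like genes per member. The main fit held no term for the sample number. Residuals of equal numbers correlated at 0.13, 0.13 and 0.23 for tumour and non-tumour liver of the arsenite line. Only there were sample numbers taken as pairs, in an alternative fit with a block.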

Additional observations from a re-analysis of the deposited data

How the results depend on the processing

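Each comparison was recomputed under 22 alternatives, 12 of which left out 1 array. Between 4 and 5 members were called against arsenite non-tumour liver and between 4 and 6 against normal liver, with no call reversed. None was called in the comparisons without tumours. Of 11 member calls in the tumour comparisons 7 were kept in every alternative. The exceptions were Met under the replicate block (adjusted p = 0.056 and 0.077), Tgfa against normal liver with normexp and Erbb2 against normal liver. The block changed no call of a member besides Met and Erbb2. Equal numbers were taken as pairs only for tumour and non-tumour liver, in this alternative and not in the main fit. The labels do not say that they mark the same mouse. Against normal liver the block does not stand for pairs. Egfr against non-tumour liver ran from -1.93 to -1.40. Of 38 pathway calls 20 were kept in every alternative, among them Nrg1, Mst1r and Rhbdf1 in both comparisons. The scaling set the balance of all genes: 36.3% of those called against non-tumour liver were higher, but 53% with the percentile over probes above background on all arrays and 46.5% after quantile normalisation. Against normal liver the share of 35.7% became 50.1% and 46.1%, 59.5% with a median shift and 21.7% with no filter, where 14139 genes were called in place of 8686. Without tumours, between 0 and 5 genes were called against normal liver and between 0 and 6 against control liver. A slide block could not be fitted, since no group spans several slides. Dim probes limit Tgfa, Egf, Hgf and Erbb2.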
